A study of Mus musculus with 4 samples.

Results

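The genes described here were 9 genes of epithelial identity: Epcam, Cdh1, Cldn6, Cldn7, Krt8, Krt18, Trp63, Grhl2 and Esrp1. They were taken by symbol from the 32285 genes counted in every library, and all 9 were found once in each. They were followed across ectodermal, endodermal, otic and mesodermal cells and, within each replicate, between conditional knockout (cKO) and conditional heterozygous (cHet) embryos.

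Single-cell RNA-seq was performed on cells of the Tbx1Cre lineage from mouse embryos at E9.5, sorted as EGFP+ and DAPI- from the pharyngeal region and heart. The cHet libraries came from Tbx1Cre/+;Kmt2d fl/+ embryos and the cKO libraries from Tbx1Cre/+;Kmt2d fl/fl embryos, and both genotypes carried 1 copy of a floxed Gfp reporter. Cre was knocked into the Tbx1 gene, so that both groups were also heterozygous for Tbx1, and no library held embryos with 2 active copies of Tbx1. The labels give the strain as outbred SwissWebster and the study's methods a mixed C57BL/6 and Swiss Webster background, and the embryos were pooled, with 4 embryos in each library of replicate 1 (Rep1) and 3 embryos in each library of replicate 2 (Rep2). Each genotype was therefore represented by 2 libraries, and each replicate number also marked a 10x kit, Next GEM for Rep1 and GEM-X for Rep2. Kmt2d encodes a histone methyltransferase that marks enhancers. Both genotypes carried a floxed copy, so the comparison asks what loss of the remaining copy did in this lineage. No genotype here was designed to keep 2 active copies of Kmt2d in the lineage.

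The 4 libraries held 179454146 to 234726019 UMIs (unique molecular identifiers, 1 per captured transcript), and 5869 to 11938 cells per library were kept. The cHet Rep1 library stood apart, since it held 37093 barcodes against 9307 to 16775 in the other libraries. In it 60.0% of the UMIs lay in kept cells, against 86.1% to 91.6%. The paper lists far fewer total cells for cHet Rep1, whereas its totals for the other libraries equal their barcode counts here. The deposited cHet Rep1 file thus held many barcodes beyond the paper's cells, whose part in the lower UMI share was not tested. The kept cells of the 2 Rep1 libraries shared 12 barcodes and those of the 2 Rep2 libraries shared 41, with 0 shared across replicates. Kmt2d itself gave 17.4 and 23.9 CPM (UMI counts scaled to the total of the summed cells) in the cHet libraries and 15.2 and 21.0 CPM in the cKO libraries, but the 3' tags counted here do not check the deletion. By RT-qPCR the paper reports a significant depletion of Kmt2d in cKO against Tbx1Cre/+ embryos of the same stage. Cells were clustered without the 9 genes and clusters were called ectoderm-like, endoderm-like, otic-like or mesoderm-like from other markers. For brevity these are called ectodermal (1095 cells), endodermal (657), otic (590) and mesodermal (28004) cells, among 33448 cells in all. The ectodermal clusters passed on 7 markers, with Foxi2, Tfap2a, Wnt6 and Sp6 among them, the endodermal clusters on 7, with Pax9, Pax1, Foxa1 and Shh, and the otic clusters on 11.

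An epithelium is a sheet of polarized cells held together by adherens junctions, tight junctions and desmosomes and reinforced inside by keratin filaments. The surface ectoderm and the endoderm of the pharynx are such sheets and meet where pharyngeal pouches touch clefts, and the otic vesicle is an epithelium that forms by invagination of ectoderm. Transcription factors of the grainyhead-like and p63 families and the splicing factor ESRP1 maintain the epithelial program, whereas Snail and Zeb factors, which bind E-boxes of the sequence CACCTG, repress it in mesenchyme.

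The genes fall into 4 roles. Epcam, an adhesion molecule of most embryonic epithelia, lies on the plus strand at chr17:87635979-87651129 of GRCm38, and Cdh1, the E-cadherin of adherens junctions, on the plus strand at chr8:106603351-106670246. The tight junction claudins Cldn6 and Cldn7 lie on the plus strands at chr17:23679249-23682446 and chr11:69964779-69967885. Krt8 and Krt18, whose proteins pair in the filaments of simple epithelia, are neighbors on chromosome 15, at chr15:101996698-102004482 on the minus strand and chr15:102028180-102032027 on the plus strand, with starts 23698 bases apart. Trp63, which encodes the p63 factor of stratified epithelia, lies at chr16:25683763-25892102 on the plus strand, Grhl2, a grainyhead-like activator of junction genes, at chr15:37233036-37363569 on the plus strand, and Esrp1 at chr4:11331933-11386783 on the minus strand. Grhl2 overlaps 2 annotated antisense genes (Gm16136 and Gm16137) and a pseudogene (Gm16138) on the other strand, and Krt8, Esrp1 and Trp63 also overlap other annotated genes.

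RefSeq promoter windows of GRCm38.p6, from 250 bases before to 50 bases after a start, were at hand for 5 of the 9 genes (Epcam, Cldn6, Cldn7, Krt8 and Krt18), and each was searched on both strands. The CACCTG E-box was present in at least 1 window of all 5 genes (6 windows) and absent from the more upstream of the 2 Cldn7 windows. Across the genome it was in 20.2% of 32851 promoter windows, a share per window and not per gene. Epcam held it 187 and 19 bases before the start, Cldn6 93 bases before and 40 bases after it, and Krt8 111 bases before it. Cldn7 held it 97 and 57 bases before the more downstream of its 2 starts, and Krt18 214 bases before its start. The TFAP2 motif GCCNNNGGC was in the Krt18 window only (16.6% of all windows), and the E-box CACGTG only in that of Epcam (7.15%). Neither grainyhead-like motif, AACCGGTT (0.146% of windows) nor the looser AACNNGTT (4.2%), was in any of these windows. The 2 promoters whose matches lie before the annotated gene are shown, with E-boxes and, for Krt18, the TFAP2 motif in capitals, at chr17:87635729-87635978 (plus strand) and chr15:102027966-102028179 (plus strand). These matches describe the sequence and do not show binding.
Epcam promoter: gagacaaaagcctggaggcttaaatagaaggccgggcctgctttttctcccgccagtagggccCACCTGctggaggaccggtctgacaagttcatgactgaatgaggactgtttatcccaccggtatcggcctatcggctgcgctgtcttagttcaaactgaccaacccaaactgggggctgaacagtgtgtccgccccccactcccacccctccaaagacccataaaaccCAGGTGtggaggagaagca
Krt18 promoter: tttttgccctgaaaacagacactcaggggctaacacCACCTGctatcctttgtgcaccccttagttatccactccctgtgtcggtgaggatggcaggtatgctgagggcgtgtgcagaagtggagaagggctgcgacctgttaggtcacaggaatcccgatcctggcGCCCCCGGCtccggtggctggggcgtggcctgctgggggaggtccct

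At least 89.3% of the UMIs of 7 of the 9 genes lay in the 3 epithelial groups. Ectodermal, endodermal and otic cells were 2342 of the 33448 cells (7.00%) and held 7.10% of all UMIs. They held 95.2% of the Grhl2 UMIs, 94.97% of those of Cldn6 and of Trp63, 93.7% of Cldn7, 91.9% of Esrp1 and 89.3% of both Epcam and Cdh1. The keratins were spread more widely, since the same cells held 50.1% of Krt8 and 54.5% of Krt18 UMIs. Mesodermal cells held 33.1% of the Krt8 and 41.0% of the Krt18 UMIs, and neuronal cells a further 16.5% of Krt8.

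**Figure D1:**
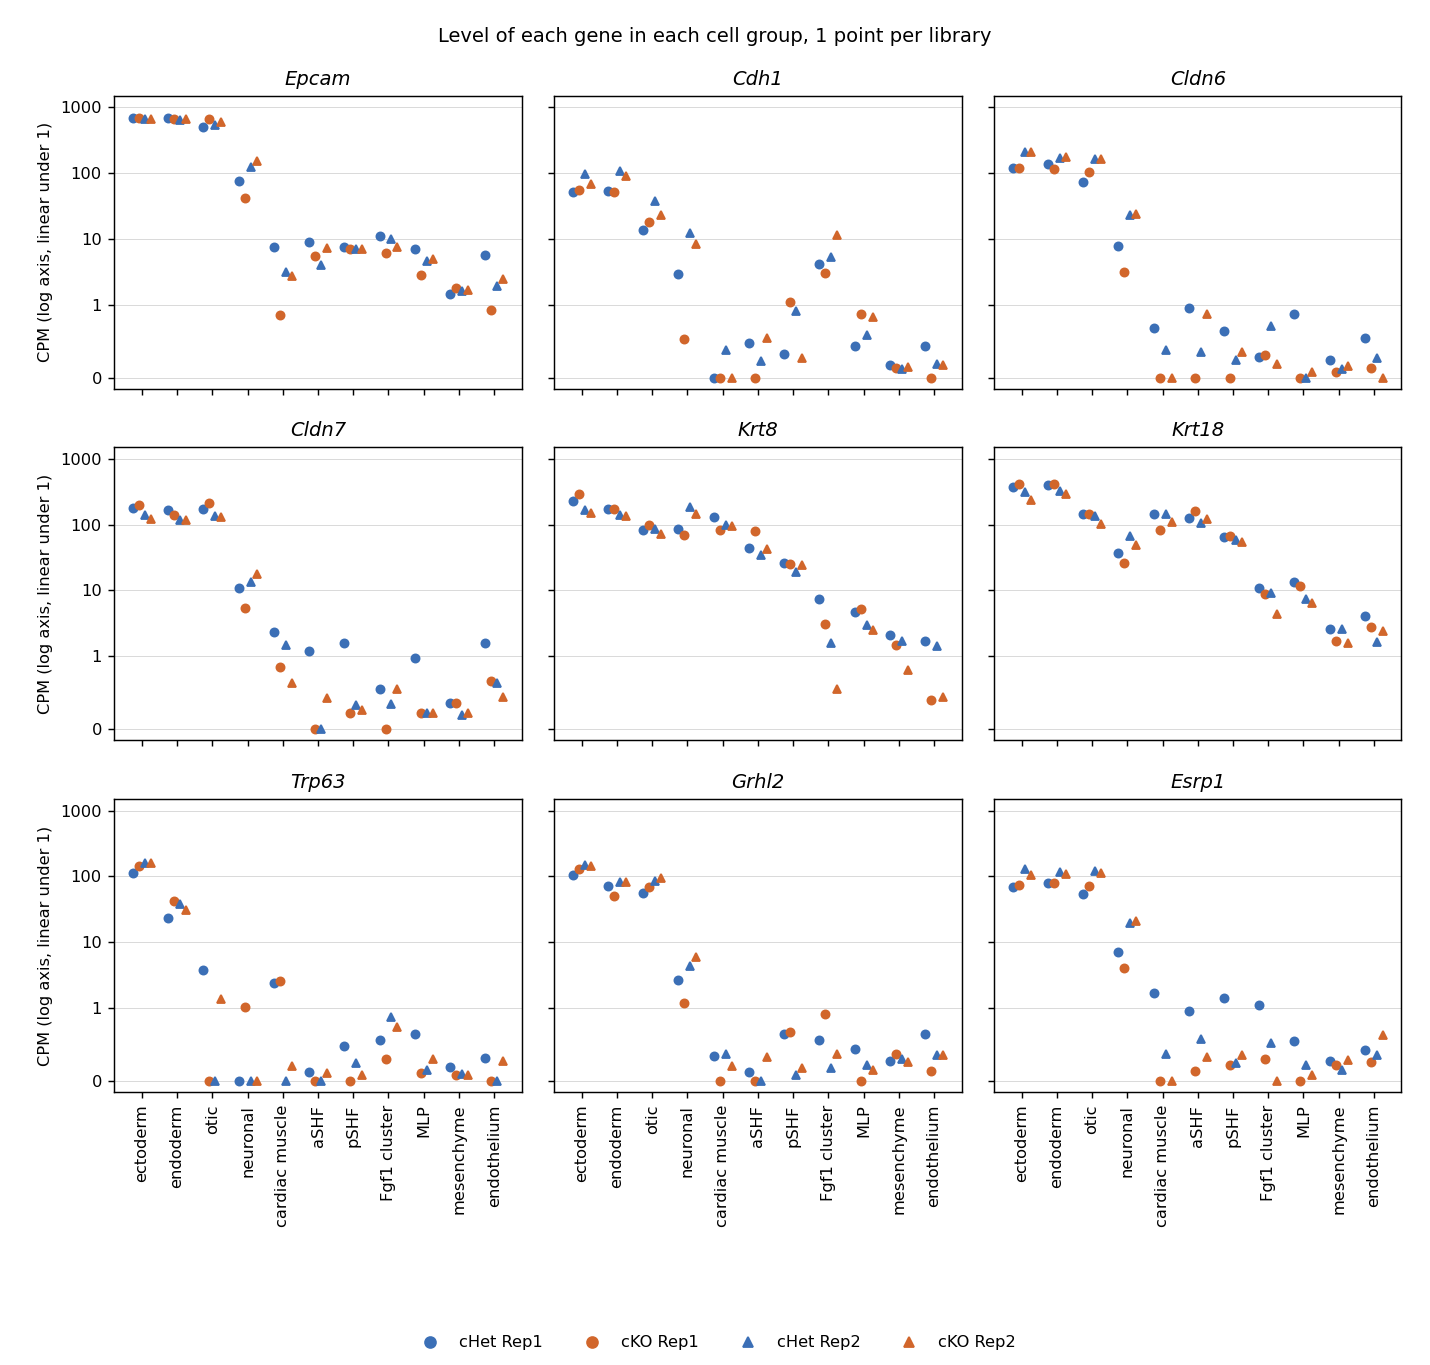
Level of each of the 9 genes in each cell group, as CPM of the summed counts on a log axis that is linear under 1, with 1 point per library. Ectodermal, endodermal and otic cells lie highest for the junction genes and for Grhl2 and Esrp1, Trp63 falls to 0 to 3.71 CPM in otic cells, and the keratins also reach at least 18.8 CPM in the anterior and posterior second heart field, cardiac muscle and neuronal cells.

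Epcam was the adhesion gene with the most even level across the 3 epithelia. In ectodermal cells it had 694 and 657 CPM in the cHet libraries of Rep1 and Rep2 and 684.3 and 669.5 CPM in the cKO libraries, a mean of 676 ± 16.2 CPM (SD over the 4 libraries of both genotypes, as in all means below). Endodermal cells had 683 and 632 CPM in cHet and 662 and 667 CPM in cKO (mean 661 ± 21.1). In otic cells it had 504 and 533 CPM in cHet and 663 and 595 CPM in cKO (mean 574 ± 70.5). The otic range reached into the ectodermal one, so that the groups overlapped. Within each library the otic level was the lower one, at 72.7% to 96.9% of the ectodermal level. In mesodermal cells Epcam had 2.66 to 3.86 CPM, and in neuronal cells 41.9 to 150 CPM.

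Cdh1 was lower in otic cells than in the other epithelia. Ectodermal cells had 50.5 and 97.99 CPM in cHet and 55.0 and 67.9 CPM in cKO, and endodermal cells had 52.7 and 108 CPM in cHet and 51 and 90.5 CPM in cKO. Otic cells had 13.6 and 37.6 CPM in cHet and 18.1 and 23.1 CPM in cKO, which was 26.9% to 38.4% of the ectodermal level of the same library and below every ectodermal and endodermal library. The Rep2 libraries were the higher ones for Cdh1 in every pair of one genotype. CPM was not rescaled between kits here, and the median gene was 0.26 to 0.39 higher on the log2 scale in Rep2 than in Rep1 in these 4 groups.

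The library ranges of the claudins did not separate the 3 epithelia, although some groups differed within every library. Cldn6 had 119 and 210 CPM in cHet and 119 and 205 CPM in cKO ectodermal cells, means of 149 ± 27.7 CPM in endodermal and 125 ± 44.6 CPM in otic cells, and otic levels of 61.5% to 86.3% of the ectodermal level. Cldn7 had 182 and 142 CPM in cHet and 197 and 124 CPM in cKO ectodermal cells. Its means were 136 ± 23.6 CPM in endodermal and 162 ± 39.0 CPM in otic cells. Otic Cldn7 lay at 94.2% to 108% of the ectodermal level and endodermal Cldn7 at 70.8% to 96.7% of it. Otic Cldn6 and endodermal Cldn7 were thus below the ectodermal level in 4 of 4 libraries. The library ranges of both claudins overlapped in all 3 groups. Before scaling, every Rep2 library was higher than the Rep1 library of its genotype for Cldn6 and lower for Cldn7.

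Both keratins were lower in otic cells. Krt8 had 225 and 168 CPM in cHet and 289 and 148 CPM in cKO ectodermal cells, and 176 and 140 CPM in cHet and 170 and 136 CPM in cKO endodermal cells. In otic cells it had 84.1 and 85.2 CPM in cHet and 98.2 and 73.1 CPM in cKO, 34.0% to 50.8% of the ectodermal level. The otic values lay below every library of the other 2 epithelia, which overlapped each other. Endodermal cells had 58.9% to 91.8% of the ectodermal level of the same library.

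Krt18 was likewise lowest in otic cells. It had 367 and 312 CPM in cHet and 409 and 233 CPM in cKO ectodermal cells, 404 and 325 CPM in cHet and 412 and 293 CPM in cKO endodermal cells, and 144 and 134 CPM in cHet and 144 and 101 CPM in cKO otic cells. Otic cells had 35.1% to 43.3% of the ectodermal level, again with no overlap, whereas endodermal cells had 101% to 126% of it and overlapped. The number of Krt18 UMIs per Krt8 UMI was 1.62 in ectodermal, 2.26 in endodermal and 1.51 in otic cells, and it was 0.379 in neuronal cells, in which Krt8 had 68.5 to 183 CPM and Krt18 had 26.2 to 66.2 CPM.

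Trp63 was the gene that differed most between the epithelia. It had 113 and 158 CPM in cHet and 146 and 159 CPM in cKO ectodermal cells, and 23.4 and 38.4 CPM in cHet and 42.2 and 30.3 CPM in cKO endodermal cells. Otic cells had 3.71 and 0 CPM in cHet and 0 and 1.36 CPM in cKO, from 16 UMIs in all. The 3 groups did not overlap, and endodermal cells had 19.0% to 29.0% of the ectodermal level. In endodermal cells Trp63 stood at 23.3% of its ectodermal mean. The 14 ectodermal markers ran from 1.45% for Foxi2 to 136% for Gata3, a range too wide to place Trp63. The markers with the highest ectodermal levels, Foxi2, Tfap2a, Wnt6 and Fermt1, stood at 1.45%, 1.80%, 15.8% and 36.7%.

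Grhl2 was highest in ectodermal cells, with 105 and 149 CPM in cHet and 128 and 145 CPM in cKO. Endodermal cells had 72.4 and 81.8 CPM in cHet and 49.7 and 82.9 CPM in cKO. Otic cells had 56.0 and 84.9 CPM in cHet and 69.3 and 92.9 CPM in cKO. The ectodermal libraries lay above all others, and endodermal and otic cells overlapped. Esrp1, whose product promotes epithelial splice forms, had means of 94.1 ± 27.5 CPM in ectodermal, 95.2 ± 18.7 CPM in endodermal and 89.5 ± 32.1 CPM in otic cells. Its 3 ranges overlapped, and in each group both Rep2 libraries were higher than both Rep1 libraries. In mesodermal cells all genes other than Epcam and the keratins had 0.09 to 0.64 CPM.

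For the share of cells with a UMI, each cell was thinned to 5000 UMIs so that depth was equal, and no cell was too shallow for this. Epcam was then found in 93.9% of ectodermal, 92.2% of endodermal and 91.7% of otic cells, against 1.36% of mesodermal and 1.22% of endothelial cells, which should lack it. Without thinning these shares were 99.5%, 98.6%, 98.8%, 4.81% and 3.28%, at median depths of 18649, 21106, 20459.5, 19506 and 19437 UMIs per cell. Over all mesodermal cells the Epcam share was thus close to the endothelial one. The thinned Epcam share of neuronal cells was 23.5%. Among mesodermal groups the thinned share ran from 0.63% in a cluster led by Zic1 and 0.82% in mesenchyme-like cells to 4.05% in a cluster led by Fgf1. Cdh1 was found in 26.7% of ectodermal, 32.9% of endodermal and 10.2% of otic thinned cells, and Trp63 in 35.6%, 10.4% and 0.34%. For Cldn6, Cldn7, Trp63, Grhl2, Esrp1 and Cdh1, at most 0.24% of thinned mesodermal cells held a UMI, but Krt8 was found in 3.04% and Krt18 in 5.56% of them.

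Several of the genes were found together in single epithelial cells. At least 5 of the 9 genes had a UMI in 52.1% of thinned ectodermal, 42.2% of endodermal and 21.7% of otic cells. The same was true of 2.09% of neuronal cells and of 2 of the 28004 mesodermal cells.

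**Figure D2:**
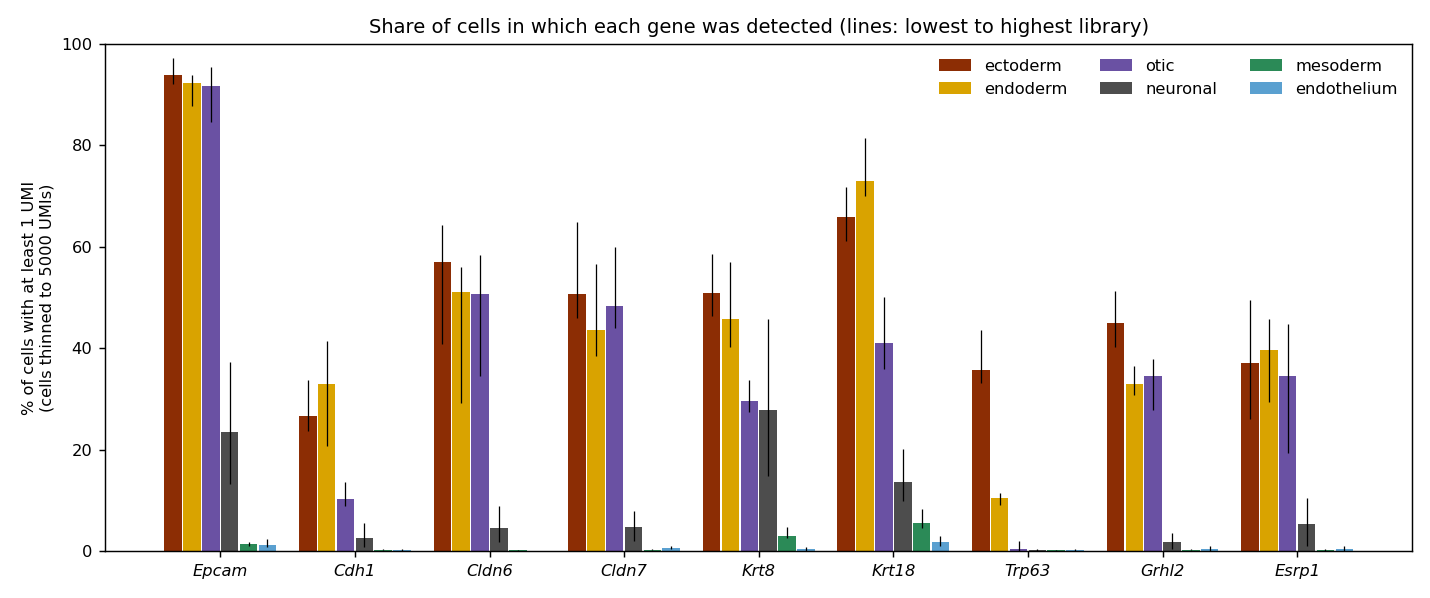
Percentage of cells with at least 1 UMI of each gene after every cell was thinned to 5000 UMIs, by cell group, with bars for all cells and lines from the lowest to the highest library. Epcam is found in over 90% of the cells of all 3 epithelia, and Trp63 falls from 35.6% of ectodermal to 10.4% of endodermal and 0.34% of otic cells.

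Trp63 also divided the cells within an epithelium. In ectodermal cells before thinning, a Trp63 UMI was found in 52.6% and 58.2% of cells in the cHet and 61.1% and 50.0% in the cKO libraries of Rep1 and Rep2. The 25% of ectodermal cells with most Trp63 held 79.6% of its UMIs. Ectodermal cells with and without a Trp63 UMI had similar median depths, 18552.5 and 18716 UMIs. Grhl2 was 1.94-fold, Cdh1 1.79-fold and Krt18 1.67-fold higher in the cells with Trp63, each in 4 of 4 libraries, and Krt8 1.45-fold higher in 3 of 4. The broadly shared genes differed little, with ratios of 0.95 for Epcam, 0.93 for Cldn6, 0.94 for Cldn7 and 1.06 for Esrp1. Epcam was lower in the cells with Trp63 in 4 of 4 libraries and Cldn6 and Cldn7 in 3 of 4, while Esrp1 was higher in 3 of 4.

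Endodermal cells showed a similar division at a lower Trp63 share of 22.2% (17 and 50 cells in cHet and 11 and 68 in cKO, Rep1 and Rep2). There the ratio between cells with and without Trp63 was 1.69 for Cdh1, 1.67 for Krt8, 1.57 for Krt18 and 1.3 for Grhl2, and 0.96 for Epcam, 0.88 for Cldn7 and 1.1 for Esrp1. Unlike in ectodermal cells, Cldn6 was higher in the cells with Trp63 in 4 of 4 libraries, with a ratio of 1.15. Markers used for naming also moved with the split. In ectodermal cells Fermt1 was 3.89-fold, Tfap2c 3.88-fold and Wnt6 3.26-fold higher in the cells with Trp63, and Pax9 stood at a ratio of 0.36, each in 4 of 4 libraries. In endodermal cells the forkhead genes Foxa2 and Foxe1 were higher, at ratios of 2.9 and 2.5, and Pax9 and Gata3 lower, at 0.54 and 0.4, each in 4 of 4 libraries. The split may thus separate kinds of cells, whose part in the ratios was not tested. The ratios are descriptions of cells that were split by a measured gene and carry no test.

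**Figure D3:**
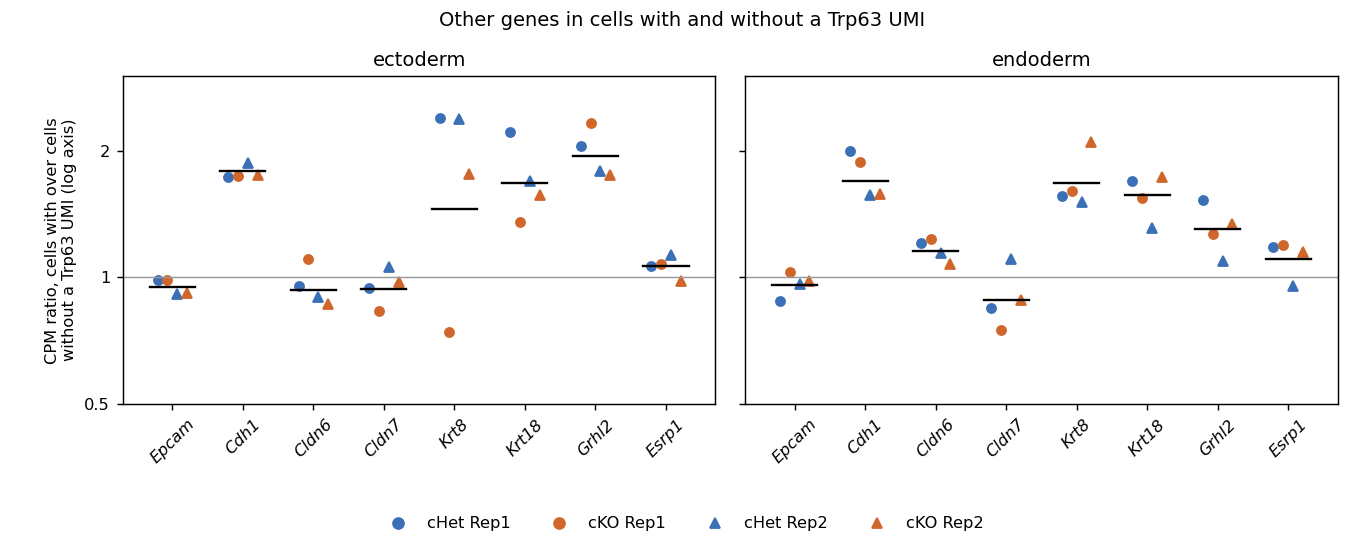
Ratio of the CPM of each other gene in cells with a Trp63 UMI to that in cells without one, in ectodermal and endodermal cells, on a log axis with 1 point per library. Cdh1, Krt18 and Grhl2 lie above 1 in all 4 libraries of ectodermal cells, whereas Epcam, Cldn6 and Cldn7 lie near 1.

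The genes whose pattern over 52 sums (13 cell groups in 4 libraries, log2(CPM + 1)) was most like each of the 9 genes were often among the 9 genes or the fixed epithelial list. For Epcam they were Esrp1 (Pearson r = 0.980), Cldn6 (0.979) and Ap1m2 (0.974), which encodes an epithelial clathrin adaptor subunit. For Cldn6 they were Esrp1 (0.996), Ap1m2 (0.995) and Rab25 (0.992), and for Grhl2 the membrane serine proteases St14 (0.989) and Prss8 (0.988) and the claudin Cldn9 (0.988). Krt18 was most like the desmosomal cadherin Dsg2 (0.953), Krt8 (0.951) and Prkcz (0.949). For Trp63, Mir205hg (0.939) and Platr21 (0.939) were among them. For Cdh1 they were Spint1 (0.957), Mapk13 (0.952) and 2310002F09Rik (0.948), for Cldn7 Cldn6, Esrp1 and Ap1m2 (0.986 each), for Krt8 Krt18 (0.951), Prkcz (0.915) and Pdpn (0.901), and for Esrp1 Cldn6 (0.996), Ap1m2 (0.993) and Rab25 (0.989). The sums share libraries and cell groups, so that these values describe likeness only.

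The genotype comparison asked whether loss of both copies of Kmt2d in this lineage, rather than of a single copy, changed these genes in each cell group. None of them passed the test in ectodermal, endodermal, otic or all mesodermal cells (edgeR quasi-likelihood test on counts summed per library, blocked by replicate, with Benjamini-Hochberg adjusted p-values over all genes and a threshold of 0.05). Values from here on are CPM after TMM scaling, the edgeR scaling of library size, and fold changes are log2, cKO over cHet. With 2 libraries per genotype, each a pool of embryos, little of the spread between pools can be measured per gene. The fits therefore take much of it from other genes, and an interval can miss the change of a single replicate. In summed counts, fewer cells with a transcript and less RNA per cell cannot be told apart.

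In ectodermal cells, 0 of the 9 genes were called, beside 0% of 12684 genes, of which 468 had an unadjusted p under 0.05 and 0 were called by DESeq2. Epcam had 787 and 580 CPM in cHet and 776 and 597 CPM in cKO, a log2 fold change of 0.01 (95% interval -0.14 to 0.16). The 2 Rep1 libraries lay above the 2 Rep2 libraries, and the genotypes overlapped. Trp63 had 128 and 140 CPM in cHet and 165 and 142 CPM in cKO, a log2 fold change of 0.18 (-0.04 to 0.39), with 0.37 in Rep1 and 0.025 in Rep2. It was the only one of the 9 genes whose genotypes did not overlap in these cells, which was true of 16.3% of all genes. Cdh1 had 57.4 and 86.5 CPM in cHet and 62.4 and 60.5 CPM in cKO, and its log2 fold change of -0.27 (-0.58 to 0.05) joined 0.12 in Rep1 and -0.51 in Rep2. The log2 fold changes of Cldn6, Cldn7, Krt8, Krt18, Grhl2 and Esrp1 lay between -0.13 and 0.11. Trp63 was also the only gene with the same sign in both replicates, which held for 48.5% of all genes.

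In endodermal cells, 0 of the 9 genes were called, beside 0.113% of 11502 genes. Epcam had 783 and 561 CPM in cHet and 730 and 607 CPM in cKO, a log2 fold change of 0.01 (-0.28 to 0.30). All 9 genes overlapped between genotypes, whereas 17.9% of all genes did not. The largest difference between the replicates was that of Trp63, with 26.9 and 34.1 CPM in cHet and 46.6 and 27.6 CPM in cKO, so that its log2 fold change was 0.78 in Rep1 and -0.30 in Rep2. Grhl2 had 83.1 and 72.7 CPM in cHet and 54.9 and 75.6 CPM in cKO (-0.59 in Rep1, 0.055 in Rep2). Cdh1, Krt8, Krt18 and Esrp1 were lower in cKO in both replicates, by log2 fold changes of -0.18, -0.05, -0.07 and -0.07. These were 4 of 9 genes, beside 48% of all genes with one sign in both. Of the 4, Krt8 was nearly unchanged in Rep2 (-0.0004).

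In otic cells, 0 of the 8 genes tested were called, beside 0.135% of 11099 genes, and Trp63 was too low to be tested. Epcam had 582 and 470 CPM in cHet and 762 and 521 CPM in cKO. The cKO library was the higher one in each replicate, but the values of the genotypes overlapped across replicates. Its log2 fold change was 0.27 (0.08 to 0.45; 0.39 in Rep1 and 0.15 in Rep2), with an edgeR quasi-likelihood p of 0.008 and an adjusted p of 0.518. Grhl2 had 64.6 and 74.96 CPM in cHet and 79.6 and 81.4 CPM in cKO (0.19, -0.08 to 0.47), without overlap, as was true of 18.8% of all genes. Cdh1 again went apart in the replicates, with 15.7 and 33.2 CPM in cHet and 20.7 and 20.3 CPM in cKO. Cldn6, Cldn7, Krt8, Krt18 and Esrp1 had log2 fold changes of 0.20, 0.11, -0.02, -0.22 and 0.08, all overlapping. Epcam, Cldn6 and Grhl2 were higher and Krt18 lower in cKO in both replicates, 4 of 8 genes beside 51.7% of all genes. Of these, Cldn6 was nearly unchanged in Rep2 (0.004) and Krt18 in Rep1 (-0.008). The otic cells of the cHet Rep1 library also held a summed level of 194 CPM of the mesenchyme markers used for naming, against 16.1 to 39.8 CPM in the other 3 libraries. The part of these transcripts in the otic differences was not tested.

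The difference of the genotype effect between epithelia was tested directly in 12 sums. These sums came from the same 4 libraries, so the fit held a term for each library and for each group by replicate, and its p-values measure the spread between sums and not that between further animals. None of the 9 genes passed between endodermal and ectodermal cells (0.00771% of 12963 genes called), otic and ectodermal cells (0.131%) or otic and endodermal cells (0.116%). For Epcam the effect was 0.26 higher in otic than in ectodermal cells (0.01 to 0.52) and 0.28 higher than in endodermal cells (0.02 to 0.54, log2), both with an edgeR quasi-likelihood adjusted p of 1.00.

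**Figure D4:**
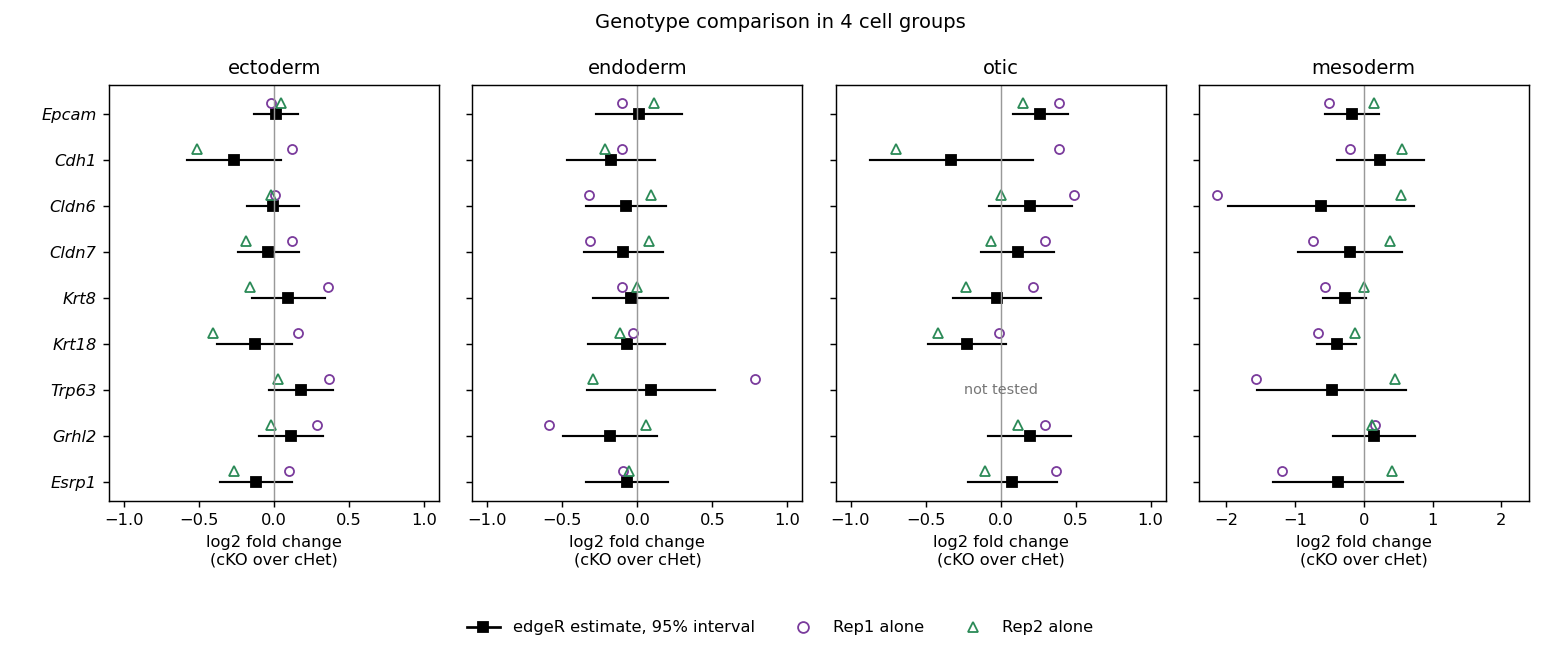
Log2 fold change of each gene, cKO over cHet, in ectodermal, endodermal, otic and mesodermal cells, as the edgeR estimate with its 95% interval (square) and as the change within Rep1 (circle) and Rep2 (triangle); the mesodermal axis is wider. The replicates lie on opposite sides of 0 for 8 of 9 genes in ectodermal cells, and no gene passes the adjusted threshold in these 4 groups.

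The fixed lists of other epithelial and of mesenchymal genes were counted in the same fits. Of 65 other epithelial genes, 59 were tested in ectodermal cells, 52 in endodermal and 48 in otic cells, and 0 were called in any of them. Their median log2 fold changes were -0.13, -0.09 and 0.002, beside medians over all genes of -0.003, 0.005 and -0.009. In ectodermal cells 45 were negative and 14 positive, in endodermal cells 33 and 19, and in otic cells 24 and 24. One sign in both replicates was held by 22 of the 59 in ectodermal cells, beside 48.5% of all genes, by 22 of the 52 in endodermal cells, beside 48%, and by 34 of the 48 in otic cells, 18 higher and 16 lower, beside 51.7%. The medians of the 9 genes were -0.009 in ectodermal and -0.07 in endodermal cells and 0.10 for the 8 genes tested in otic cells.

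Among the epithelial genes with one sign in both replicates, the highest in ectodermal cells were the basal keratin Krt14 (0.97), the plakophilin Pkp3 (0.41) and the polarity gene Pard6b (0.23), and the lowest Krt19 (-0.57), the junction scaffold Tjp3 (-0.55) and the motor Myo5b (-0.47). In endodermal cells the integrin Itga6 (0.21) and Prom1 (0.13) were among the highest, and the lowest were Krt15 (-0.66), Cldn4 (-0.58) and the protease inhibitor Spint1 (-0.42). In otic cells they were Krt7 (0.62), Krt19 (0.60) and the tight junction gene Ocln (0.47), and Krt23 (-1.22), Grhl1 (-0.65) and Cldn3 (-0.56). None of the genes named here had an adjusted p under 0.05. Several were low, so that their changes rest on few UMIs. Krt14 had a mean of 1.41 CPM in ectodermal cells, with 0 CPM in the cHet Rep2 library. Krt15 had 4.44 CPM in endodermal cells, and Krt7, Krt19, Krt23 and Grhl1 had 3.52 to 7.69 CPM in otic cells.

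Of 27 mesenchymal genes, 25 were tested in ectodermal, 19 in endodermal and 16 in otic cells, and 0 were called in the first 2 groups. Their median log2 fold changes were 0.04, 0.06 and -0.76, and 3, 2 and 10 of them had an unadjusted edgeR p under 0.05, as had 468 of 12684, 433 of 11502 and 613 of 11099 genes in all. The highest and lowest with one sign in both replicates were, in ectodermal cells, the growth factor receptor Pdgfra (0.66), the N-cadherin gene Cdh2 (0.48) and the collagen Col1a2 (0.31), and Twist2 (-0.57), Col3a1 (-0.41) and Sparc (-0.26). In endodermal cells 4 genes kept one sign, namely Fbn1 (0.65), Twist1 (0.57), Cdh2 (0.29) and Prrx2 (-0.22). In otic cells they were Cdh2 (0.24), Prrx2 (0.23) and Tcf4 (0.04), and Lum (-2.57) together with the 2 genes called. Those 2 were lower in cKO, Col3a1, a fibrillar collagen gene (log2 fold change -3.23, adjusted p = 0.01 by the edgeR quasi-likelihood test), and Prrx1, a homeobox gene of limb and head mesenchyme (-2.76, adjusted p = 0.02). Col3a1 had 52.3 and 11.3 CPM before scaling in cHet and 2.94 and 2.33 CPM in cKO, and Prrx1 32.6 and 5.33 CPM in cHet and 3.36 and 1.36 CPM in cKO. The cHet Rep1 library was the highest for both. Both are among the mesenchyme markers whose sum was 194 CPM in that library, so that this sum is not a separate measure. Neither call was kept without the replicate block, where no gene was called in otic cells.
In all mesodermal cells, 0 of the 9 genes were called, beside 0.104% of 19233 genes. Krt18 had 26.2 and 14.8 CPM in cHet and 16.5 and 13.5 CPM in cKO, a log2 fold change of -0.39 (-0.68 to -0.11), with an edgeR quasi-likelihood p of 0.013 and an adjusted p of 0.441. Krt8 had 13.2 and 6.69 CPM in cHet and 8.95 and 6.70 CPM in cKO (-0.28, -0.59 to 0.04). The cHet Rep1 library was the highest for both keratins, and Krt8 of the cKO Rep1 library lay between it and the Rep2 libraries. Epcam had 4.25 and 2.52 CPM in cHet and 3.00 and 2.79 CPM in cKO. Only Krt18 and Grhl2 had the same sign in both replicates, 2 of 9 genes beside 54.3% of all genes, and the genotypes overlapped for all 9, whereas 13.6% of all genes did not overlap. Of the other 6 genes, Cldn6, Cldn7, Trp63 and Esrp1 were also highest in the cHet Rep1 library. Barcodes of 500 to 1000 UMIs, which can hold free RNA or shallow cells, had 60.1 CPM of Epcam in that library, against 17.2 to 22.2 CPM in the other 3. These values rest on 286 Epcam UMIs in 6324 barcodes of cHet Rep1 and on 9 to 30 UMIs in 573 to 1999 barcodes elsewhere. The barcode sets are also unlike, since the cHet Rep1 file holds many barcodes beyond the cells the paper lists. The part of free RNA in these mesodermal values was not tested. Of the fixed lists, 50 other epithelial genes were tested in mesodermal cells, 10 with a positive and 40 with a negative log2 fold change and a median of -0.32, and 0 were called, as were 0 of 27 mesenchymal genes with a median of 0.10, beside a median of 0.01 over all genes. One sign in both replicates was held by 34 of the 50, 4 higher and 30 lower, and by 18 of the 27, 14 higher and 4 lower, beside 54.3% of all genes. An unadjusted edgeR p under 0.05 was found for 14 of the 50 and 12 of the 27, and for 1497 of 19233 genes in all.

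The mesodermal keratin transcripts came mainly from heart-related cells. Cells like the anterior second heart field (aSHF), the posterior second heart field (pSHF) and cardiac muscle were 3856 of the 28004 mesodermal cells and held 80.6% of the mesodermal Krt8 and 82.5% of the Krt18 UMIs. Before scaling, Krt8 had 34.1 to 80.7 CPM in aSHF, 18.8 to 25.9 CPM in pSHF and 83.4 to 131 CPM in cardiac muscle cells. Krt18 had 105 to 161 CPM in aSHF, 53.8 to 67.9 CPM in pSHF and 82.6 to 146 CPM in cardiac muscle cells. In mesenchyme-like cells, the largest mesodermal group, both had 0.82 to 2.64 CPM. The 3 heart-related groups made up 17.9% and 14.1% of mesodermal cells in cHet and 9.41% and 13.9% in cKO, and cardiac muscle 155 and 217 cells in cHet and 44 and 241 in cKO. The cHet Rep1 library thus had the highest share of these cells as well as the highest keratin levels, and the part of this makeup was looked at by group. The comparison was therefore repeated within these 3 groups and within mesenchyme-like cells, a choice made after seeing the data. The p-values were adjusted within each of these fits and not across them.

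Within aSHF cells Krt8 was called higher in cKO in the main fit, a call that most alternatives did not keep. It had 50.0 and 30.2 CPM in cHet and 90.8 and 38.3 CPM in cKO. The cKO library was the higher one in each replicate, although the genotypes overlapped across replicates. The log2 fold change was 0.62 (SE 0.12, interval 0.38 to 0.86), with 0.86 in Rep1 and 0.34 in Rep2, the latter below the interval. The adjusted p was 0.0289 by the edgeR quasi-likelihood test, beside 0.106% of 13213 genes called. The call was kept with RLE scaling, with all genes of at least 1 count and with clusters made within each replicate, and lost in 6 other settings, with DESeq2 (0.61, adjusted p = 1.00), without the block (0.69, adjusted p = 1.00) and with cells thinned to 5000 UMIs (0.53, adjusted p = 0.605) among them. Keeping the block, a library left out leaves only the other replicate's own change, 0.86 in Rep1 or 0.34 in Rep2, with no test. Fits without both the block and 1 library, which also compare across kits, gave -0.06 without cKO Rep1 and up to 1.18 otherwise, with no call.

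Krt18 had 142 and 93.1 CPM in cHet and 182 and 107 CPM in cKO aSHF cells, a log2 fold change of 0.28 with an edgeR quasi-likelihood adjusted p of 0.313. In pSHF cells (0.19% of 13161 genes called) the log2 fold changes were 0.21 for Krt8 and -0.06 for Krt18. In cardiac muscle cells (0.143% of 11908 genes called) Krt8 had -0.26 and Krt18 -0.52, the latter with an adjusted p of 0.143. Mesenchyme-like cells (1.67% of 17443 genes called) had -0.75 for Krt8 and -0.66 for Krt18, with adjusted p of 0.105 and 0.063. Their levels of 0.74 to 2.92 CPM lay below the 11.8 to 40.7 CPM of the keratins in barcodes under 1000 UMIs. The barcode values rest on 16 to 165 UMIs per keratin and library. Neither keratin was called in these 3 groups. A direct test of the difference between groups, also added after seeing the data, called both keratins between aSHF and mesenchyme-like cells (0.162% of 14774 genes called), and neither between aSHF and pSHF (0.088%) or aSHF and cardiac muscle cells (0%). The call between aSHF and mesenchyme-like cells was lost in 4 of 8 alternatives for Krt8 and in 5 of 8 for Krt18, among them the fit without the replicate block (log2 differences of 1.37 and 0.96, adjusted p = 1.00 for both by edgeR).

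**Figure D5:**
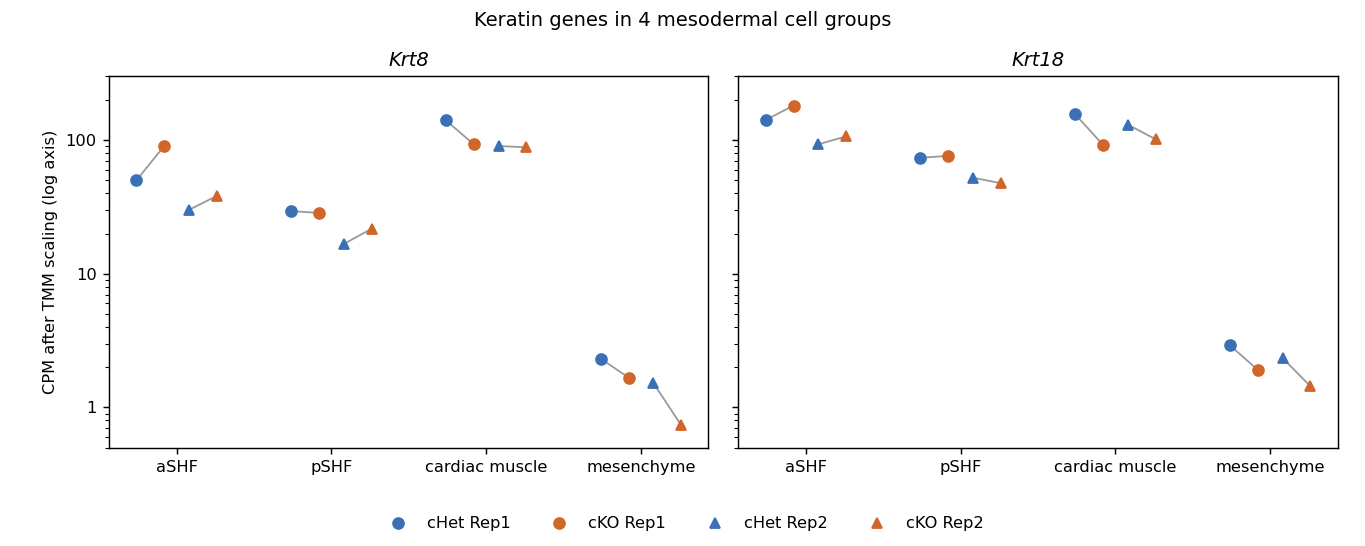
Krt8 and Krt18 in aSHF, pSHF, cardiac muscle and mesenchyme-like cells, as CPM after TMM scaling on a log axis with 1 point per library. In aSHF cells the cKO library lies above the cHet library of its replicate for both genes, and the mesenchyme-like cells lie between 0.74 and 2.92 CPM.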

How the data were processed

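The 4 libraries held 10x 3' UMI counts per gene and barcode, deposited by the authors as raw count matrices made with Cell Ranger (8.0.1 per the labels for all libraries, while the headers of the Rep1 files name 7.0.1 and those of Rep2 name 8.0.1) on mm10. The ambient RNA correction and integration of the study came after these files and were not repeated. Barcodes with at least 3000 genes, at most 10% mitochondrial and 5% hemoglobin counts were kept. Automatic doublet thresholds marked 0.032% and 0.015% of Rep1 and 1.59% and 1.74% of Rep2 barcodes, so the highest-scoring 4.03% to 5.78% of each library, near the expected rate, were removed. With Python 3.11.15, scanpy 1.11.5 and leidenalg 0.10.2, cells were scaled to 10000 counts, aligned between replicates and clustered on 2000 variable genes and 30 components (20 neighbours, resolution 0.8), leaving out the 9 genes. Clusters were named where at least 3 markers of a type were 2-fold higher than in other cells (after adding 5 CPM) and were found in at least 10% of cells; these thresholds were chosen once the clusters had been seen. Mesenchyme clusters were compared with non-mesodermal cells (7 to 10 markers passed), and 1 cluster of 250 cells stayed unnamed because 2 neural crest markers passed in it.

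Counts were summed per library and cell group and tested with edgeR 4.0.16 (R 4.3.3; filterByExpr, TMM, quasi-likelihood, replicate as a block, Benjamini-Hochberg adjustment over all genes tested). The replicate number marks a shared kit in the labels, and same-numbered libraries deviated together (r = 0.706, 0.648, 0.713 and 0.832 in ectodermal, endodermal, otic and mesodermal cells). The fits were also run on simulated data, with outcomes not reported here. Alternatives were RLE scaling, DESeq2 1.42.0, no filter on low counts, no block, each library left out, thinned cells, at least 1000 genes per cell, doublets kept, the 9 genes used in clustering, and clusters within replicates. Fits within mesodermal groups were added after seeing the data. The text names the 9 genes, list genes past the threshold, and per epithelial group the 3 highest and 3 lowest list genes with one sign in both replicates. For likeness it names the 3 genes with the highest r among genes reaching 20 CPM; some genes these rules name are not reported here. The members and lists were chosen with earlier results of these data known. Positions are from GENCODE M21.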

Additional observations from a re-analysis of the deposited data

Results flagged for a closer look

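The effect of the genotype on both keratin genes differed between mesodermal cell groups in a test added after seeing the data. The log2 fold change of Krt8, cKO over cHet, was 1.39 higher in aSHF than in mesenchyme-like cells (95% interval 0.86 to 1.93, adjusted p = 0.0298), and that of Krt18 was 0.95 higher (0.63 to 1.28, adjusted p = 0.0152), by the edgeR quasi-likelihood test, in which 0.162% of 14774 genes were called. The 16 sums of this fit came from the same 4 libraries, so it held a term for each library and for each group by replicate, and its p-values measure the spread between sums. The sign of both differences held in the 8 alternatives run, but the call did not. Krt8 lost it, at differences close to the 1.39 above, without the type by replicate term (1.37, adjusted p = 1.00), with thinned cells (1.49, 0.079), with doublets kept (1.26, 0.110) and with clusters within replicates (1.42, 0.122, all by edgeR), and it reached 2.31 with at least 1000 genes per cell, where it was called. Krt18 lost it without that term (0.96, adjusted p = 1.00), with thinned cells (0.52, 0.999), with at least 1000 genes per cell (2.09, 0.063), with doublets kept (0.71, 0.085) and with the 9 genes in clustering (0.82, 0.058, all by edgeR). Leaving out a library was not run for this difference. In aSHF cells both cKO libraries lay above the cHet library of their replicate. In mesenchyme-like cells both lay below it, at 0.74 to 2.92 CPM. These levels lay below the 11.8 to 40.7 CPM of the keratins in barcodes of 500 to 1000 UMIs. The barcode values rest on 16 to 165 UMIs per keratin and library, and the part of such barcodes in the difference was not tested. The same difference was not called between aSHF and cardiac muscle cells (0.84 for Krt8 and 0.75 for Krt18, adjusted p = 0.352 and 0.113 by edgeR), where 0 of 14774 genes were called and 972 had an unadjusted p under 0.05. Between aSHF and pSHF cells it was 0.41 and 0.35 (adjusted p = 1.00 and 0.870 by edgeR, 0.088% of genes called).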

How the results depend on the processing

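In no alternative was any of the 9 genes called in ectodermal, endodermal, otic or all mesodermal cells, and the smallest edgeR or DESeq2 adjusted p among them was 0.835, 0.998, 0.0806 and, apart from the fits within aSHF cells, 0.056. The counts of all genes called did depend on the processing. In ectodermal cells 0 became 1 with RLE scaling, 43 with all genes of at least 1 count, 2 with thinned cells, 1 with at least 1000 genes per cell, 12 with doublets kept, 2 with the 9 genes in clustering and 9 with clusters within replicates. In endodermal cells 13 became 29 with RLE, 6 with DESeq2, 61 without the count filter, 2 with thinned cells and 39 with doublets. In otic cells 15 became 4 with DESeq2, 160 without the count filter, 163 with at least 1000 genes, 68 with doublets, 8 with the 9 genes in clustering and 109 with clusters within replicates. In mesodermal cells 20 became 0 with RLE, 99 with DESeq2, 309 without the count filter, 12 with thinned cells and 2 with at least 1000 genes. Leaving out 1 library, which for counts of calls also dropped the block, gave 0 to 0 calls in ectodermal, 0 to 7 in endodermal, 0 to 19 in otic and 0 to 1 in mesodermal cells. Calls between epithelia were 1, 17 and 15 (endodermal minus ectodermal, otic minus ectodermal, otic minus endodermal), 10, 78 and 86 without the count filter and 2, 1 and 4 with thinned cells.

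Without the replicate block 0 genes were called in endodermal, otic and mesodermal cells and 0 in the 3 differences between epithelia, Cldn7 turned to 0.0049 in ectodermal, Epcam to -0.0071 in endodermal and Krt8 to 0.032 in otic cells (log2), and Krt8 in aSHF cells lost its call (0.69). Apart from the difference between aSHF and mesenchyme-like cells given with its alternatives, the block changed no other call.

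Signs turned in the following settings, and the only turned value that was called was Krt8 within aSHF cells. In ectodermal cells they were Cldn7 0.0069 with doublets, Cldn6 0.025 with at least 1000 genes, Epcam -0.023, Cldn6 0.093, Krt8 -0.14 and Grhl2 -0.036 with thinned cells, and Epcam -0.0052, Krt8 -0.12 and Grhl2 -0.0074 with clusters within replicates. In other epithelia they were endodermal Epcam -0.087 and Krt8 0.0042 and otic Cldn6 -0.014 and Esrp1 -0.037 with thinned cells, and otic Krt8 0.0015 with DESeq2. In mesodermal cells they were Trp63 0.20 and Grhl2 -0.64 with thinned cells, Cdh1 -0.47 and Grhl2 -1.06 with at least 1000 genes, Grhl2 -0.22 with clusters within replicates, Krt8 0.62 and Krt18 0.28 within aSHF cells and Krt8 0.21 within pSHF cells. Differences between epithelia turned for Epcam (0.0017 without the count filter, endodermal minus ectodermal) and, with thinned cells, for Cldn7 0.030, Krt8 0.15 and Trp63 0.44 (endodermal minus ectodermal), Cldn6 -0.095 (otic minus ectodermal) and Krt8 -0.37 (otic minus endodermal). The cause was not tested. In aSHF cells, leaving out 1 library together with the block gave -0.055 to 1.18 for Krt8 and -0.13 to 0.63 for Krt18, whereas the changes within Rep1 and Rep2 were 0.86 and 0.34 for Krt8 and 0.36 and 0.20 for Krt18, and Krt8 was also not called with at least 1000 genes (adjusted p = 0.057), doublets kept (0.351) or the 9 genes in clustering (0.172, all by edgeR).

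Levels moved by more than their SD in 13 of 135 repeats, mostly mesodermal, with Epcam at 5.34 CPM in mesodermal cells of at least 1000 genes. Clusters made within replicates kept 98.4% of ectodermal and 97.8% of otic but 76.0% of endodermal cells, because the endodermal cells of Rep1 fell into an ectodermal cluster. No endodermal comparison was made there, and the ectodermal comparison of that setting also held those cells (1239 cells in place of 1095). Mesodermal intervals were wide for genes of few UMIs whose replicates differed, as for Cldn6 (137 UMIs, -2.13 in Rep1 and 0.53 in Rep2, interval -1.98 to 0.74).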

Other observations

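A mesodermal cluster led by Fgf1 (1063 cells) held Cdh1 in another proportion to Epcam than the epithelia did. Its Cdh1 level was 4.17 and 5.25 CPM in cHet and 3.04 and 11.4 CPM in cKO (Rep1 and Rep2), while Epcam had 10.8 and 9.80 CPM in cHet and 6.08 and 7.51 CPM in cKO. Cdh1 had 38.5 and 53.6 UMIs per 100 Epcam UMIs in cHet and 50.0 and 151 in cKO, against 1.25 to 17 in ectodermal, endodermal, otic and neuronal cells. In the cKO Rep2 library 44 of the cells held Cdh1 and 34 held Epcam, and 5 held both. In barcodes of 500 to 1000 UMIs Epcam had 17.2 to 60.1 CPM (9 to 286 UMIs), above its levels in the cluster. Cdh1 had 5.89 and 7.22 CPM in these barcodes in cHet (28 and 8 UMIs) and 0 and 2.96 CPM in cKO (0 and 4 UMIs). The cHet Cdh1 levels of the cluster lay below those of the barcodes, whose few UMIs make this comparison rough. The mean Cdh1 level of the 4 libraries was 5.96 CPM in the cluster and 0.093 to 0.68 CPM in the other 7 mesodermal groups, while that of Epcam was 8.56 CPM and 1.63 to 7.06 CPM. These values were singled out after the data were seen and were not tested.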
